A study of Mus musculus with 18 samples.

Results

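The genes described here are 10 nuclear genes whose proteins copy, transcribe, stabilise or degrade the nucleic acids of mitochondria: Tfam, Polrmt, Tfb2m, Tfb1m, Twnk, Polg, Lrpprc, Slirp, Pnpt1 and Supv3l1. They were chosen by symbol from the deposited tables, and all 10 were found in each of the 3 tables, among 27830 genes listed in at least 1 of them. The RNA was that of CD8+ T cells of wild-type mice (WT) and of mice labelled cKO, a conditional knockout of Hspa9, which encodes the mitochondrial chaperone GRP75. Naive cells were taken from the spleen and lymph nodes of mice aged 8 weeks, without treatment. Effector and memory cells were grown in culture from such naive cells. Each subset has 3 WT and 3 cKO libraries, 18 in all, and nothing in the labels says that replicates came from different mice, so the p-values measure only the spread between these libraries, which may be technical. The strain, the Cre driver of the deletion and the culture conditions are not given in the sources used here.

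Mitochondrial DNA is a small circle that encodes proteins of the respiratory chain and the RNAs needed to translate them. Every factor that reads it is imported from the cytosol as the product of a nuclear gene. POLRMT is its RNA polymerase, TFAM bends and packages the DNA at the promoters, and TFB2M opens the promoter for the polymerase. Twinkle (Twnk) unwinds the DNA for the replicative polymerase POLG. LRPPRC and SLIRP form a complex that protects mitochondrial mRNAs, whereas the exonuclease PNPase (Pnpt1) and the helicase SUV3 (Supv3l1) degrade mitochondrial RNA. T cells build up mitochondria when they are activated, and memory CD8+ T cells are known for relying on oxidative metabolism.

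Promoters of such genes are known for binding sites of the respiratory factors NRF1 and GABP (an ETS-family factor), so the stretch from 250 bases before to 50 after each annotated start was searched. All 10 genes had an entry in the RefSeq promoter table, with 11 promoters, on build GRCm38.p6, which is not the build of the expression tables. On either strand, the ETS letters CCGGAAG lay in the promoters of 5 genes (Tfam, Polrmt, Twnk, Polg and Slirp). The same letters lay in 17.5% of the 12933 promoters of tested genes, and in 8.86% of all 32851 promoters. The NRF1 core GCATGCGC lay in those of Polrmt and Tfb2m, against 5.1% of promoters of tested genes and 2.71% of all promoters. A looser form, GCNTGCGC, which includes the first, was found for 3 genes (Polrmt, Tfb2m and Supv3l1), against 18.8% and 9.95%. The letters TGATGNAA, a motif of the stress factor ATF4, were in none of the 11 member promoters, and in 2.45% of promoters of tested genes and 3.97% of all promoters. One site per gene is shown for the ETS letters and for the NRF1 core. The genes shown include some, but not all, of those whose RNA differed between groups below, and Slirp, which passed no test. Each is printed 5′ to 3′ on the strand of the gene, with the matched letters, or their reverse complement, in capitals.
Tfam, ETS, chr10:71238074-71238102 (-), 40 bases before the start: cctgccgcggaCCGGAAGtccgggcttcc
Polrmt, ETS, chr10:79746607-79746635 (-), 36 bases before the start: ccctaagagcgCTTCCGGcagtcgcagaa
Twnk, ETS, chr19:45006481-45006509 (+), 59 bases before the start: ggagagttttgCTTCCGGagtcaccgcga
Polg, ETS, chr7:79466294-79466322 (-), 31 bases before the start: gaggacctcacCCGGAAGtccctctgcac
Slirp, ETS, chr12:87443837-87443865 (+), 41 bases before the start: aacagtttggcCCGGAAGcagaactcgaa
Polrmt, NRF1, chr10:79746696-79746725 (-), 125 bases before the start: agagtatttctGCGCATGCtctcttgccgc
Tfb2m, NRF1, chr1:179546245-179546274 (-), 13 bases after the start: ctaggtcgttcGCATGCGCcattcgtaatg
A match is a description of letters and not of a bound site.

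Reads assigned to genes numbered 14771251 in the shallowest library and 18049774 in the deepest. Within a subset, levels are given as normalised reads, which are reads divided by 1 size factor per library. Across subsets they are given as CPM, reads scaled to library size with TMM. The CD8 T cell marker genes were all 8 detected in every library. Summed effector markers, such as Gzmb, were 2950 to 3305 CPM in effector libraries, and at most 310 CPM elsewhere. Hspa9 itself was higher in the libraries labelled cKO in every subset, by 0.69 (naive), 0.16 (effector) and 0.48 (memory) on the log2 scale (SE 0.06, 0.05 and 0.07; limma adjusted p = 1.3e-05, 0.033 and 0.00034). No fall of Hspa9 reads was thus seen, but reads per gene cannot show whether a part of the gene was deleted. The deletion was not tested here, and cKO below means the libraries labelled cKO. In naive cells the Y-linked gene Ddx3y had 0 normalised reads in all 3 WT libraries and 2771 to 3056 in the cKO libraries, so sex and genotype cannot be told apart there. The sex of the effector and memory libraries is not described here.

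The first comparison was between WT subsets, and asked how these genes differ between naive, effector and memory cells. In WT effector cells 7 of the 10 genes were lower than in WT naive cells and Tfam was higher, so 8 of 10 passed the test (edgeR quasi-likelihood, adjusted p under 0.05), where 66.4% of all 15840 genes did. By direction, 32.6% of all genes were lower and 33.8% higher. The libraries of the 2 groups did not overlap for these 8 genes, and for 70.0% of all genes. The median log2 fold change of the 10 genes was -0.42, and that of all genes tested was near 0 (-0.0024).

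Twnk, the helicase gene (ENSMUSG00000025209, chromosome 19, 44994102 to 45001201, GRCm39), had the widest range of the 10. Its WT libraries held 21.9, 23.8 and 23.5 CPM in naive cells and 9.89, 8.25 and 9.04 CPM in effector cells. Memory WT libraries held 18.4, 21.4 and 20.6 CPM. The 3 WT groups did not overlap. The effector level was below the naive level, at -1.35 on the log2 scale (SE 0.12, adjusted p = 4.7e-10), and the memory level was above the effector level by 1.15 (SE 0.12, adjusted p = 1.2e-08). Memory against naive gave -0.20 (SE 0.11, adjusted p = 0.19), which did not pass.

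Polrmt, the polymerase gene (ENSMUSG00000020329, chromosome 10, 79571957 to 79582415), was highest in naive cells, with 44.8, 59.0 and 47.8 CPM in the WT libraries. WT effector libraries held 24.1, 28.2 and 26.6 CPM and WT memory libraries 30.7, 32.2 and 30.7 CPM. All naive WT libraries lay above the other WT libraries, with log2 fold changes of -0.94 (SE 0.12, adjusted p = 2.2e-07) for effector and -0.70 (SE 0.12, adjusted p = 5.1e-05) for memory against naive cells. Effector and memory WT libraries did not overlap either, but their difference of 0.25 missed the threshold (SE 0.12, adjusted p = 0.091).

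Tfb2m, the gene of the promoter-opening factor (ENSMUSG00000026492, chromosome 1, 179355620 to 179373832), was the one gene of the 10 that was higher in memory than in naive WT cells by the test. Its WT libraries held 39.0, 30.3 and 36.2 CPM in naive, 20.7, 18.4 and 19.8 in effector and 41.8, 42.0 and 48.4 in memory cells. The 3 groups did not overlap. Effector cells were below naive cells, at -0.84 (SE 0.10, adjusted p = 1.2e-07) and memory cells were above effector cells by 1.17 (SE 0.10, adjusted p = 4.3e-10). The difference of memory from naive cells was 0.33 (SE 0.10, adjusted p = 0.011). That call was lost without memory WT replicate 3 (adjusted p = 0.069) or naive WT replicate 2 (adjusted p = 0.086).

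Lrpprc, which encodes the mRNA-protecting partner of SLIRP (ENSMUSG00000024120, chromosome 17, 85012675 to 85098217), was also lowest in effector cells. WT naive libraries held 99.7, 90.9 and 92.1 CPM, effector libraries 58.7, 59.5 and 56.6, and memory libraries 88.9, 89.0 and 82.2. Effector against naive cells gave -0.69 (SE 0.07, adjusted p = 1.8e-09) and memory against effector cells 0.57 (SE 0.07, adjusted p = 6.7e-08). Memory against naive cells gave -0.12 (adjusted p = 0.17), which was not called, although no memory library reached the lowest naive one.

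Tfam, the DNA-packaging factor (ENSMUSG00000003923, chromosome 10, 71061294 to 71074110), was the only gene of the 10 called higher in effector than in naive WT cells. Tfb1m (0.35) and Slirp (0.32) also had positive log2 fold changes there, which did not pass. WT effector libraries held 77.7, 75.9 and 79.0 CPM, above the 68.3, 62.0 and 69.3 CPM of naive and the 69.6, 66.4 and 66.9 CPM of memory libraries. The difference from naive cells was 0.22 (SE 0.07, adjusted p = 0.012) and memory cells were below effector cells, at -0.20 (SE 0.07, adjusted p = 0.025). The first call was lost without naive WT replicate 2 (adjusted p = 0.065) or when reads were scaled to library totals (0.13). The second was lost without effector WT replicate 1 (0.059) or 3 (0.074), and with library totals (0.067). Tfam also had the smallest ratio between its highest and lowest group mean of the 10 genes, 1.19, against 2.68 for Twnk.

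The other genes moved by less. Polg, the replicative polymerase (ENSMUSG00000039176, chromosome 7, 79095979 to 79116110), was lower in effector (-0.41, adjusted p = 0.00018) and in memory (-0.26, adjusted p = 0.018) than in naive WT cells. The memory call was lost without memory WT replicate 1 (0.067), memory WT replicate 3 (0.068) or naive WT replicate 2, where the value was -0.14 (0.20). Naive WT replicate 2 was the highest of its group for Polg, at 113 CPM against 88.2 and 90.6. Pnpt1, the exonuclease gene (ENSMUSG00000020464, chromosome 11, 29080744 to 29111828), was lower in effector than in naive cells (-0.44, adjusted p = 7.9e-05). Supv3l1, its helicase partner (ENSMUSG00000020079, chromosome 10, 62264988 to 62285517), was also lower (-0.29, adjusted p = 0.0086), a call lost without effector WT replicate 3 (0.057). In memory cells Pnpt1 was above the effector level by 0.25 (adjusted p = 0.013) and Supv3l1 by 0.23 (0.039). The first call was lost without effector WT replicate 2 (0.11) or memory WT replicate 2 (0.059). The second was lost with DESeq2 (0.061), with no filter (0.073), without effector WT replicate 2 (0.11) or 3 (0.16), and without any of the memory WT replicates 1, 2 and 3 (0.089, 0.10 and 0.065). It was also lost without effector cKO replicate 1 (0.053) or naive cKO replicate 1 (0.064) or 2 (0.066).

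Of memory against naive WT cells, 3 of 10 genes were called, Polrmt and Polg lower and Tfb2m higher, where 35.8% of all genes were called, 15.0% lower and 20.8% higher. Their libraries did not overlap for 6 of the 10 genes, and for 45.7% of all genes. Of memory against effector WT cells, 6 of 10 were called, with Tfb2m, Twnk, Lrpprc, Pnpt1 and Supv3l1 higher and Tfam lower, where 60.6% of all genes were called, 31.2% higher and 29.3% lower. There 8 of the 10 genes did not overlap, against 67.0% of all genes. Scaled to library totals, 5 of 10 were called for memory against naive cells, with Lrpprc (0.0453) and Pnpt1 (0.0241) added; Pnpt1 also passed without naive WT replicate 2 (0.0466). Counted in either direction, the calls among the 10 genes are near the share of all genes in memory against naive and in memory against effector cells.

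Tfb1m, which encodes a methyltransferase of the small mitochondrial ribosomal RNA (ENSMUSG00000036983, chromosome 17, 3569531 to 3608056), passed no WT test. Its 18 libraries lay between 4.70 and 8.97 CPM, and its effector against naive difference was 0.35 (SE 0.17, adjusted p = 0.081), called without effector WT replicate 1 (0.036) or naive WT replicate 1 (0.043). Slirp (ENSMUSG00000021040, chromosome 12, 87490666 to 87498976) was measured from 6 to 32 reads per library. Of its 3104 exon bases, 97.8% overlap exons of Alkbh1 or Snw1 on the other strand in GENCODE vM21, and the strand setting of the counting is not given in the sources used here. Its values are therefore uncertain. Parts of the exons of Twnk (12.6%, with Mrpl43), Polg (8.57%, with Fanci), Supv3l1 (8.42%, with 4930507D05Rik) and Tfb1m (3.93%, with Tiam2) are shared in the same way, and those of the other 5 genes are not.

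**Figure D1:**
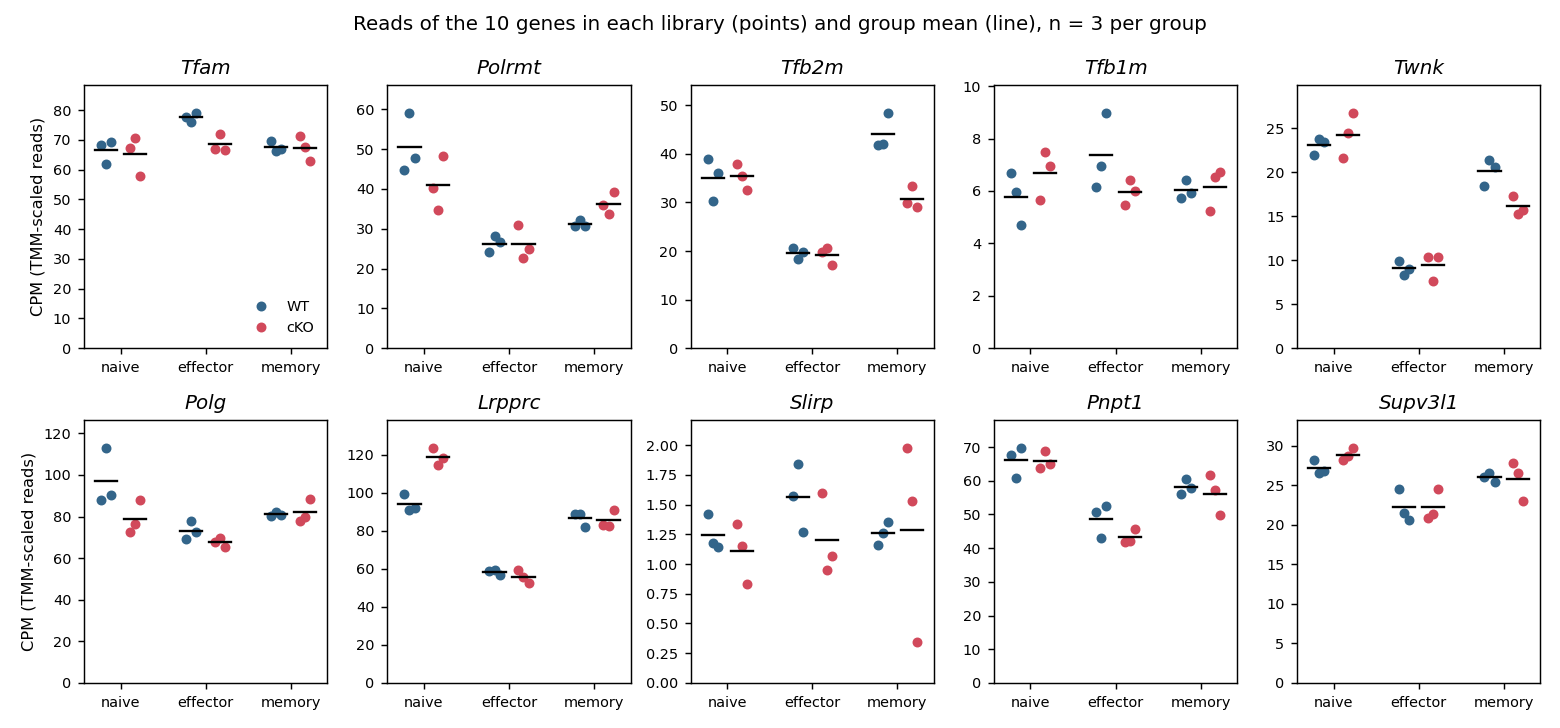
Level in CPM after TMM scaling (y axis from 0, a separate scale per gene) of the 10 genes in each of the 18 libraries (points: WT blue, cKO red) with the group mean (line), by subset. Twnk, Polrmt, Tfb2m and Lrpprc had their lowest group means in effector cells. Lrpprc was higher in naive cKO libraries (114 to 124 CPM) than in naive WT libraries (90.9 to 99.7 CPM), and Tfb2m was lower in memory cKO than in memory WT libraries.

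Divided by the length of all annotated exons of the gene, the levels can be compared only roughly between genes. That length can exceed that of the RNA present in these cells. On this scale Pnpt1 ranged over group means of 12.3 to 18.8 CPM per kilobase and Tfam over 14.7 to 17.5. Tfb2m ranged from 6.85 to 15.7, Lrpprc from 6.58 to 14.0, Polrmt from 5.57 to 10.8, Supv3l1 from 7.48 to 9.73 and Polg from 6.29 to 9.05. Twnk (2.26 to 6.04) and Tfb1m (1.60 to 2.04) lay lower, and Slirp lay lowest, at 0.356 to 0.503. Most exon bases of Slirp overlap other genes, as given above, so its place is uncertain. The 2 genes of the RNA-degrading pair thus had different levels per length in every group, with Pnpt1 above Supv3l1.

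**Figure D2:**
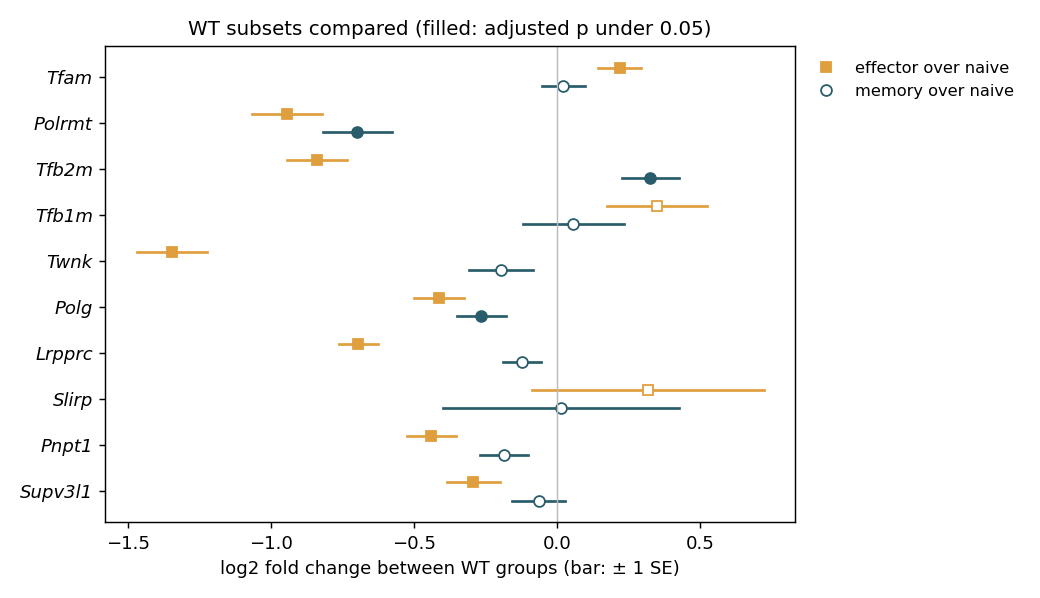
Log2 fold change of each gene in WT effector (squares) and WT memory cells (circles) over WT naive cells, with bars of ± 1 SE from edgeR. Filled symbols passed at an adjusted p under 0.05: 8 genes in effector cells, of which Tfam was higher, and 3 in memory cells.

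The second comparison asked how the cKO libraries differed from WT within naive cells. In the naive cKO libraries Lrpprc rose and Polg fell, and the other 8 genes did not pass (limma, adjusted p under 0.05). So 2 of 10 were called, where 24.9% of 13885 genes tested were, 12.9% higher and 11.9% lower. The groups did not overlap for Lrpprc and Polg and overlapped for the rest, against 39.8% of all genes not overlapping. The median log2 fold change of the 10 was -0.0175, beside -0.0116 for all genes tested.

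Lrpprc had 1700.6, 1555.3 and 1579.7 normalised reads in the naive WT libraries and 2076.6, 1932.5 and 1994.3 in the naive cKO libraries. Every cKO library was above every WT library. The mean rose from 1612 ± 77.8 to 2001 ± 72.3 (SD, n = 3), by 0.31 on the log2 scale (SE 0.07, adjusted p = 0.0052), or 1.24-fold. The call was kept in 13 of 13 alternatives.

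Polg had 1504.5, 1933.8 and 1553.5 normalised reads in naive WT and 1218.6, 1288.0 and 1479.4 in naive cKO libraries. The highest cKO library lay just under the lowest WT library, so the groups did not overlap. The log2 fold change was -0.32 (SE 0.10, adjusted p = 0.042). The call was lost without naive WT replicate 2 (adjusted p = 0.10) or 3 (0.061), without naive cKO replicate 1 (0.16) or 2 (0.13), and with library totals, where the value was -0.20 (0.17).

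Polrmt missed the threshold in naive cells. Its WT libraries held 764.4, 1010.3 and 819.8 normalised reads and its cKO libraries 674.7, 587.1 and 814.0, a difference of -0.32 (SE 0.13, adjusted p = 0.088). The groups overlapped. Without naive cKO replicate 3 the adjusted p was 0.017. Twnk (0.05), Tfb2m (-0.01), Tfam (-0.06), Pnpt1 (-0.03) and Supv3l1 (0.06) gave differences with 95% confidence intervals that held 0 and lay within -0.25 and 0.27. The intervals for Tfb1m (-0.20 to 0.59) and Slirp (-0.89 to 0.48) were wider.

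The RNAs that these proteins act on differed far more. Of the 13 mRNAs of mitochondrial DNA, 12 fell in naive cKO cells, with a median log2 fold change over the 13 of -1.67, and mt-Nd3 rose by 0.71 (SE 0.17, adjusted p = 0.012). The lowest value was that of mt-Atp8 (-2.56), a mRNA with a mean of 28.5 normalised reads in WT and 5.51 in cKO. Reads of the mitochondrial chromosome were 2.12% ± 0.22 of all reads in naive WT and 0.821% ± 0.076 in naive cKO libraries (SD, n = 3). Both mitochondrial rRNAs rose, by a median of 0.53. The log2 fold changes of the 10 nuclear genes lay between -0.32 and 0.31 in these cells.

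Marker genes of other cells and of cell state also moved with the naive genotype. Of 14 cell cycle genes 12 rose, with summed levels of 286 to 293 CPM in WT and 608 to 628 CPM in cKO. Of 8 CD8 T cell markers 7 fell, with summed levels of 5775 to 5997 CPM in WT and 5036 to 5151 CPM in cKO. All 4 tested gamma-delta T cell markers rose (9.36 to 10.9 CPM against 50.5 to 59.2 CPM), with none of the 5 listed ones at 0. Of 5 effector T cell markers 4 rose (Gzmb, Ifng, Il2ra and Tbx21, by 1.45 to 2.80) and Prf1 fell by 1.37, and their summed level was lower, at 70.4 to 77.0 CPM in WT and 50.7 to 56.7 CPM in cKO. Of 4 CD4 T cell markers 3 rose (4.52 to 5.87 CPM against 14.1 to 17.2 CPM), and of 4 tested B cell markers 2 rose and 1 fell. Among genes of the resting state, Tcf7, Lef1 and Il7r fell (-0.32, -0.38 and -0.48) and Ccr7 rose (0.44). Their part in the results was not tested. In bulk RNA, a different number of cells of a type and a different amount of RNA per cell cannot be told apart.

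In effector cells, Tfam alone of the 10 genes passed, and fell. The count of 1 of 10 stands beside 20.1% of 13815 genes tested, 9.37% lower and 10.7% higher. The WT libraries held 1182.8, 1154.3 and 1202.8 normalised reads and the cKO libraries 1020.7, 1097.4 and 1017.8, with no overlap, which 35.4% of all genes shared. The mean went from 1180 ± 24.4 to 1045 ± 45.1 (SD, n = 3), which gives -0.18 on the log2 scale (SE 0.05, adjusted p = 0.027). The call was lost without effector WT replicate 1 (0.077) or 3 (0.099), without effector cKO replicate 1 (0.073) or 3 (0.098), and in a fit of all 18 libraries (0.14). In the authors' deposited table the adjusted p of Tfam in effector cells was 0.0715.

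For the other 9 genes the effector groups overlapped. Pnpt1 gave -0.17 (SE 0.08, adjusted p = 0.13), and -0.32 to -0.01 as the 95% confidence interval. Without effector WT replicate 2 its adjusted p was 0.018. Lrpprc gave -0.06 (95% confidence interval -0.19 to 0.07) and Polg -0.11 (-0.23 to 0.01). The median of the 10 was -0.08, beside -0.0054 for all genes tested. Of the mitochondrial mRNAs, 5 of 13 rose, led by mt-Cytb (0.34, SE 0.03, adjusted p = 2.7e-07), and none fell; the lowest value was that of mt-Nd3, -0.07 (adjusted p = 0.81). All 14 cell cycle genes fell, with summed levels of 4411 to 4566 CPM in WT and 3231 to 3345 CPM in cKO. All 5 erythroid markers rose, from sums of 11.3 to 13.4 CPM to 85.4 to 90.9 CPM. Gamma-delta markers rose as in naive cells (4 of 4; 8.50 to 9.60 CPM against 61.7 to 64.6 CPM). Of 8 myeloid markers 5 rose and 1 fell (105 to 116 CPM against 130 to 144 CPM), of 4 NK cell markers 3 rose and 1 fell, of 5 effector T cell markers 2 rose, and of 8 CD8 T cell markers 1 rose and 2 fell. In the B cell list 1 of 5 and in the CD4 list 1 of 4 rose. Tcf7 (-0.32) and Ccr7 (-0.33) fell and Il7r rose (0.56). The part of these in the results was not tested.

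**Figure D3:**
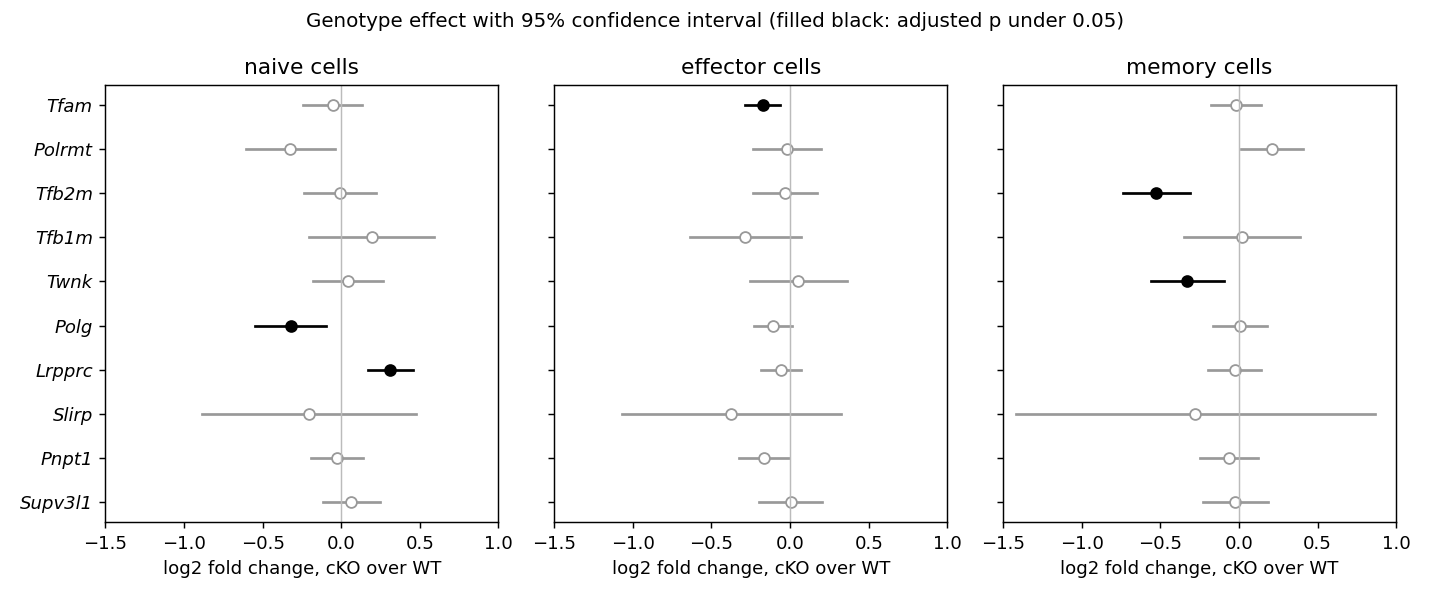
Log2 fold change of cKO over WT for the 10 genes in each subset, with the 95% confidence interval from limma; filled black symbols passed at an adjusted p under 0.05. Lrpprc rose and Polg fell in naive, Tfam fell in effector, and Tfb2m and Twnk fell in memory cells.

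In memory cells Tfb2m and Twnk fell. The count of 2 of 10, both lower, stands beside 19.1% of 14622 genes called in either direction and 7.00% called lower (12.1% higher). The groups did not overlap for 3 of the 10 genes (Tfb2m, Twnk and Polrmt), and for 36.2% of all genes. Tfb2m held 683.2, 676.9 and 788.4 normalised reads in memory WT and 470.2, 543.9 and 477.8 in memory cKO libraries. No cKO library reached the lowest WT library. The mean fell from 716 ± 62.7 to 497 ± 40.5 (SD, n = 3), which gives -0.52 on the log2 scale (SE 0.10, adjusted p = 0.0024). In 13 of 13 alternatives the call was kept. The mean level of Tfb2m in memory cKO libraries, 30.7 CPM, was below those of both naive groups (35.1 and 35.4 CPM), with overlapping libraries, and above those of both effector groups (19.6 and 19.2 CPM), without overlap.

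Twnk held 300.3, 345.1 and 335.6 normalised reads in memory WT and 272.6, 248.9 and 258.6 in memory cKO libraries, again without overlap. Its log2 fold change of -0.33 (SE 0.11, adjusted p = 0.049) was kept with edgeR on recovered reads and without memory cKO replicate 1, and lost in the other 11 of 13 alternatives. These included leaving out memory WT replicate 1 (0.062), 2 (0.14) or 3 (0.16), or memory cKO replicate 2 (0.12) or 3 (0.12). Their adjusted p ranged up to 0.16. In the authors' deposited table the adjusted p of Twnk in memory cells was 0.123.

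Polrmt was higher in all 3 memory cKO libraries, with 565.6, 549.7 and 646.4 normalised reads, than in the WT libraries, with 501.2, 519.6 and 500.0. Its log2 fold change of 0.21 (SE 0.09) was not called (adjusted p = 0.14), except with library totals (0.0452). Lrpprc (-0.03), Polg (0.01), Tfam (-0.02), Supv3l1 (-0.02) and Tfb1m (0.02) had overlapping groups, as had Pnpt1 (-0.06) and Slirp (-0.28, SE 0.52). The median of the 10 was -0.025, beside -0.0193 for all genes tested.

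Of the mitochondrial mRNAs, 11 of 13 fell in memory cKO cells, with a median over the 13 of -0.77, with mt-Atp8 lowest (-1.76, adjusted p = 0.042) and mt-Nd3 highest (0.16, adjusted p = 0.59). Reads of the mitochondrial chromosome were 2.41% ± 0.068 in memory WT and 1.55% ± 0.27 in memory cKO libraries. All 8 myeloid markers rose, with summed levels of 25.9 to 29.6 CPM in WT and 239 to 330 CPM in cKO, and none was at 0. Gamma-delta markers rose (4 of 4; 15.9 to 16.5 CPM against 117 to 153 CPM). Of 5 effector T cell markers 4 rose and Prf1 fell, with sums of 164 to 177 CPM in WT and 280 to 310 CPM in cKO. Tcf7, Lef1, Ccr7 and Il7r, genes of the resting state, fell by 0.62, 0.60, 0.68 and 0.49. Of 8 CD8 T cell markers 3 fell (5061 to 5562 CPM against 4188 to 4873 CPM), and 5 of 14 cell cycle genes rose. In the NK list 3 of 4 rose (4.66 to 6.57 CPM against 19.3 to 25.3 CPM), in the B cell list 3 of 5 (83.8 to 94.4 CPM against 128 to 143 CPM), in the erythroid list 3 of 5 (17.8 to 27.1 CPM against 46.3 to 63.4 CPM) and in the CD4 list 2 of 4 (15.2 to 18.3 CPM against 32.8 to 35.6 CPM). The part of these in the fall of Tfb2m and Twnk was not tested.

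The third comparison tested whether the genotype effect itself differed between subsets, as an interaction in 1 limma model of all 18 libraries, with 15694 genes. For effector minus naive cells Lrpprc gave -0.37 (SE 0.09, adjusted p = 0.0075), the one gene of the 10 called there, where 18.5% of all genes were, 8.81% higher and 9.69% lower. In memory against naive cells, 3 of 10 were called, where 16.9% of all genes were, 7.89% higher and 9.00% lower. Lrpprc differed by -0.34 (SE 0.09, adjusted p = 0.016) and Tfb2m by -0.52 (SE 0.14, adjusted p = 0.017). Polrmt differed by 0.53 (SE 0.17, adjusted p = 0.038), with effects of -0.32 in naive and 0.21 in memory cells, neither of them called. In memory against effector cells only Tfb2m was called among the 10 (-0.49, SE 0.14, adjusted p = 0.035), where 8.71% of all genes were, 4.75% higher and 3.96% lower. These comparisons share libraries: each subset enters 2 of the 3.

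Both Lrpprc interactions were kept in 23 of 23 alternatives. Tfb2m lost its memory against naive call without memory WT replicate 3 (0.060), naive WT replicate 2 (0.053) or naive cKO replicate 1 (0.052). Its memory against effector call was lost without effector WT replicate 2 (0.092) or 3 (0.061), effector cKO replicate 1 (0.074) or 2 (0.098), memory WT replicate 3 (0.11), and memory cKO replicate 1 (0.067) or 3 (0.076), and with library totals (0.083). Polrmt lost its call without memory WT replicate 1 (0.073) or 3 (0.076), memory cKO replicate 3 (0.092), naive WT replicate 2 (0.11), and naive cKO replicate 1 (0.074) or 2 (0.12), and with library totals (0.054). Polg differed by 0.33 between memory and naive cells (SE 0.12, adjusted p = 0.073), and passed without memory cKO replicate 1 (0.045), naive WT replicate 1 (0.039) or naive cKO replicate 3 (0.024). Twnk differed by -0.37 (adjusted p = 0.14) from naive and by -0.38 (adjusted p = 0.19) from effector cells, so its fall in memory cells was not shown to differ from the other subsets.

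The other genes of the pathway were listed by function, 75 in all. Of the 73 tested in naive cells, 9 rose and 5 fell in cKO libraries, where 12.9% of all genes rose and 11.9% fell. In effector cells 1 of 72 rose and 6 fell, against 10.7% and 9.37% of all genes. In memory cells 2 of 73 rose and 4 fell, against 12.1% and 7.00% of all genes. Their medians were -0.06, -0.04 and -0.02.

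Among 13 other replication genes, Polg2, the accessory subunit of POLG, rose in naive cells by 0.54 (SE 0.09, adjusted p = 0.0015), where Polg itself fell. Dna2, a nuclease and helicase that works in the nucleus and in mitochondria, rose by 1.20 in naive (adjusted p = 0.0081) and by 0.84 in memory cells (0.0058), and fell by 0.37 in effector cells (0.0053). Primpol, a primase-polymerase, rose by 0.31 in naive and fell by 0.26 in effector cells (adjusted p = 0.038 and 0.044). Among the 8 other transcription factors, Top1mt, the mitochondrial topoisomerase, rose by 0.44 and Mrpl12, a ribosomal protein that also binds POLRMT, fell by 0.34 in naive cells (adjusted p = 0.029 and 0.024). None of the 8 passed in effector or memory cells.

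Of 11 genes of deoxynucleotide supply, Slc25a36, a pyrimidine nucleotide carrier, rose by 0.48 and Nme4 and Suclg1 fell by 0.88 and 0.36 in naive cells. In memory cells Rrm2b, a subunit of ribonucleotide reductase, fell by 0.40 (adjusted p = 0.024) and Slc25a36 fell by 0.26 (0.049). Of 32 other genes of mitochondrial RNA processing, Nsun3 and Fastkd1 rose (0.62 and 0.40) and Mrm2 fell (-0.53) in naive cells. Cdk5rap1, a tRNA-modifying enzyme, fell by 1.26 in effector (SE 0.12, adjusted p = 6.5e-07) and by 1.16 in memory cells (SE 0.15, adjusted p = 0.00022). Nsun3 and Trmu (-0.40 each) fell in effector cells and Trmt5 (-0.70) in memory cells, all of them tRNA-modifying enzymes. Of 11 regulators of mitochondrial biogenesis, Myc rose in naive (0.61, adjusted p = 0.0015) and memory cells (0.38, adjusted p = 0.0036). Esrra fell by 0.39 in naive cells, and in effector cells Sp1 fell by 0.18 and Pprc1 rose by 0.29.

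In the WT comparison of effector with naive cells, 17 of the 73 other pathway genes were higher and 39 lower, against 33.8% and 32.6% of all genes, with a median of -0.33 beside -0.0024 for all genes tested. The 10 genes and these others thus both had more lower than higher calls. Of the 32 RNA processing genes 21 were lower and 5 higher, and of the 8 other transcription factors 4 were lower and 0 higher. The remaining lists were called about equally in both directions. Of 13 replication genes 6 were lower and 5 higher, of 10 tested deoxynucleotide genes 5 and 4, and of 10 tested regulators 3 and 3. Of memory against naive WT cells, 9 were higher and 22 lower, against 20.8% and 15.0% of all genes. Of memory against effector WT cells 26 were higher and 18 lower, against 31.2% and 29.3% of all genes.

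**Figure D4:**
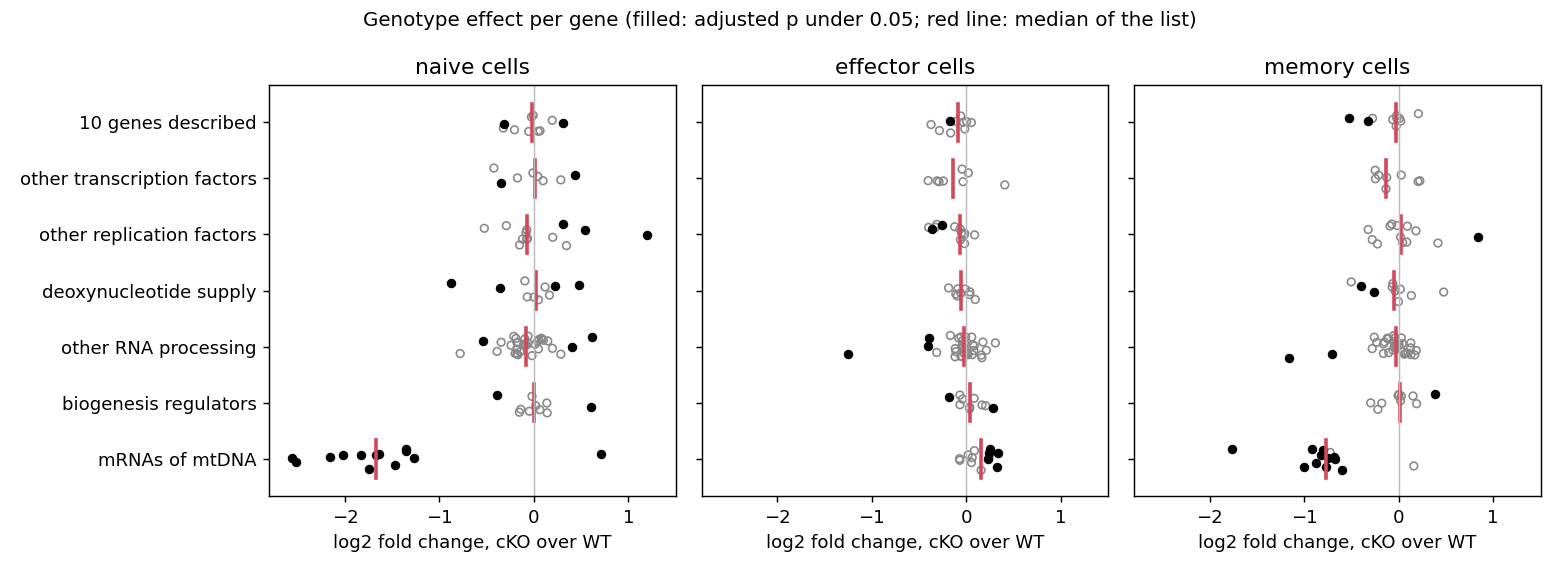
Log2 fold change of cKO over WT per gene (points, filled where the adjusted p was under 0.05) for the 10 genes, 5 lists of other nuclear genes of the pathway and the 13 mRNAs of mitochondrial DNA, with the list median as a red line, in each subset. The nuclear lists had medians between -0.14 and 0.04, while the mitochondrial mRNAs had medians of -1.67 (naive), 0.16 (effector) and -0.77 (memory).

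Across the 18 libraries, whose groups differ mainly by subset, the 10 genes did not share a single pattern. Of the 45 pairs, 25 had a positive Pearson correlation of log2 CPM, with a median of 0.22. The highest was 0.93, between Twnk and Lrpprc, and the lowest -0.66, between Tfam and Polrmt. The gene outside the 10 whose pattern was most like each one, among 7434 candidates, was Smurf2 for Lrpprc (r = 0.983), Ralgps2 for Twnk (0.978), Rasal3 for Polrmt (0.975) and Ipcef1 for Tfb2m (0.974). It was Timm21 for Pnpt1 (0.953), Arhgef1 for Polg (0.930), Abitram for Supv3l1 (0.927) and Uchl5 for Tfam (0.900). Slirp (Tmem62, 0.797) and Tfb1m (Oxsr1, 0.633) had the weakest best matches. These values describe 18 libraries that share subsets, and carry no test.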

How the data were processed

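The authors deposited 1 table per subset, in which each gene has a signal value for every library. Per the submitters' processing notes, the tools were DESeq2 1.42.0, featureCounts 2.0.6, HISAT2 2.2.1 and fastp, on GRCm39; order, settings, annotation and strand setting are not given in the sources used here. Each deposited signal value is a read count scaled by the library's size factor: expressed in units of 1 read, the values were whole for 100% of entries (largest deviation 4.53e-06, tolerance 1e-05). The deposited tables also hold the authors' log2 fold change of WT over cKO, p-values and adjusted p-values, used here only where named.

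Because the values are normalised, the genotype effect (cKO minus WT) was tested with limma 3.58.1 (R 4.3.3) with trend on log2(normalised reads + 1), in which a fold change of low genes is understated, for genes with at least 10 in at least 3 libraries. Interactions used all 18 libraries and genes of all 3 tables. WT subsets were compared on recovered reads with edgeR 4.0.16 (quasi-likelihood, TMM), since each table was scaled on its own. All p-values are two-sided and Benjamini-Hochberg adjusted over all genes tested within each of the 9 comparisons, with no adjustment across comparisons. Called means an adjusted p under 0.05. The procedure was also run on simulated data, and the outcome is not given here. Changed genes were drawn there from genes with more reads on average than Slirp. Gene lengths are those of the deposited tables. Columns of other samples numbered 0.

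The members, lists and tests were chosen with earlier results of these data known. Genes named are the 10 members, Hspa9, up to 3 called genes with the smallest adjusted p per list and genotype comparison, the highest and lowest mitochondrial mRNA per comparison, Xist and Ddx3y, and for each member the most correlated gene outside the 10 among genes with log2 CPM of at least 3 in every library. Xist fell by 1.89 in naive cKO libraries. Alternatives covered pseudocount 5, no filter, edgeR and DESeq2 1.42.0 on reads, library totals, a fit of all 18 libraries, the replicate number as a block, and leaving out each library. The list of naive and memory T cell markers is not reported here as a list. Ccr7, Lef1, Tcf7 and Il7r were named after their values were seen, as were the effector T cell markers given by symbol.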

Additional observations from a re-analysis of the deposited data

Results flagged for a closer look

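The genotype effect differed between subsets, by the interaction term in limma, for 3 of the 10 genes in 5 tests. The calls were 1 of 10 for effector minus naive, 3 of 10 for memory minus naive and 1 of 10 for memory minus effector cells. Of all genes tested, 18.5%, 16.9% and 8.71% were called, in the same order. The effect on Lrpprc, whose protein protects mitochondrial mRNAs, differed by -0.37 between effector and naive cells (SE 0.09, adjusted p = 0.0075) and by -0.34 between memory and naive cells (SE 0.09, adjusted p = 0.016); the gene rose in naive cKO libraries and was within 0.06 of WT in the others. That on Tfb2m, the promoter-opening factor, differed by -0.52 between memory and naive cells (SE 0.14, adjusted p = 0.017) and by -0.49 between memory and effector cells (SE 0.14, adjusted p = 0.035). That on Polrmt, the mitochondrial RNA polymerase, differed by 0.53 between memory and naive cells (SE 0.17, adjusted p = 0.038), with neither effect called on its own. Naive WT and cKO libraries also differed in Ddx3y, and memory cKO libraries in all 8 myeloid markers; their part in these differences was not tested.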

How the results depend on the processing

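The 27 called results on the 10 genes, WT comparisons included, were recomputed under 571 alternative values: 508 kept the call, 63 lost it and 0 changed sign. The genotype calls had 13 alternatives each. Lrpprc in naive and Tfb2m in memory cells kept 13, Polg in naive cells 7, Tfam in effector cells 8 and Twnk in memory cells 2. The 63 uncalled results gave 1199 alternative values, of which 12 passed. The number of the 10 genes called in naive cells was 2, and 1 with library totals or the replicate block, with 1 to 3 when 1 library was left out. In effector cells it was 1, and 0 in a fit of all 18 libraries, with 0 to 2. In memory cells it was 2, and 1 under DESeq2, the 18-library fit, no filter, pseudocount 5 or the replicate block, with 1 to 2. The memory against naive difference gave 3 (1 to 4 without 1 library), memory against effector 1 (0 with library totals, 0 to 1 without 1 library) and effector against naive 1 (1 to 1). For WT cells, effector against naive gave 8 (7 to 9), memory against effector 6 (4 to 6) and memory against naive 3 (1 to 3), or 5 with library totals. The causes were not tested. Over all genes, the count of calls in naive cells, 3454, was 2138 without cKO replicate 1 and 2127 without cKO replicate 2. In effector cells, 2779 became 1519 in the 18-library fit, and in memory cells 2793 became 1830 without WT replicate 3 and 1836 without cKO replicate 3. Library totals moved the median of all genes by 0.118 in naive cells and by -0.121 for effector minus naive, and the share of higher calls from 52.0% to 77.9% in naive and from 63.3% to 78.0% in memory cells. For effector minus naive that share went from 47.6% to 24.8%, and for memory minus effector from 54.5% to 73.1%.

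Same-numbered WT and cKO libraries had correlations of their deviations of -0.143 to 0.067, and differently numbered ones of -0.163 to 0.230. With 3 libraries per group, these values cannot show whether same-numbered libraries were paired, and the labels do not say. With the replicate number as a block, Polg in naive (adjusted p = 0.059) and Twnk in memory cells (0.11) were no longer called, the calls over all genes were 2469 (naive), 2687 (effector) and 2226 (memory), and no other call on the 10 genes was lost. Depth limits Slirp, at 6 to 32 reads, and mt-Atp8.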

Other observations

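Among the genes with the ETS letters in their promoters, Polg fell in naive, Tfam in effector and Twnk in memory cKO libraries, while Polrmt and Slirp passed in no subset. The Polg, Tfam and Twnk calls were lost in 6, 5 and 11 of 13 alternatives. Of the 2 genes with the NRF1 core, Tfb2m fell in memory cKO libraries and Polrmt was not called within any subset. The genotype effect on Polrmt differed between memory and naive cells (0.53, limma adjusted p = 0.038), a call lost in 7 of 23 alternatives. Lrpprc, which rose in naive cKO libraries, held none of the letters searched in its window. Of the ATF4 targets tested, 12 of 14 rose and 1 fell in naive cKO libraries, and 13 of 13 rose in memory cKO libraries. In effector cells 3 of 13 rose and 1 fell. Their summed levels were 604 to 631 CPM in naive WT and 1440 to 1565 CPM in naive cKO libraries. These are values side by side, with no test of a link.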
